A study of Gallus gallus with 9 samples.

Results

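OTX1, JDP2 and ZEB1 encode transcription factors of 3 different families, and were chosen by their counts, which were lower in the libraries labelled Lin28-bKO than in control libraries of chicken primordial germ cells (PGCs), the embryonic precursors of eggs and sperm. They are 3 of 24356 genes in the count tables and were found by symbol in the authors' deposited tables, as OTX1 (ENSGALG00000028817), JDP2 (ENSGALG00000010322) and ZEB1 (ENSGALG00000007260), each symbol with a single identifier. All 3 passed the filter on low counts and were among 15475 genes tested. The lower counts in Lin28-bKO are the reason for the choice, so they are described here and not tested. The levels in Lin28-aKO played no part in the choice, although their test shares the control libraries that the choice used.

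OTX1 is a homeodomain protein of the orthodenticle family, which patterns the forebrain, eye and ear, and its paralogue OTX2 is known in mouse for restricting entry of embryonic cells into the germline. JDP2 (Jun dimerization protein 2) is a basic leucine zipper (bZIP) protein that pairs with JUN and ATF proteins at AP-1 and cyclic AMP response sites and mostly represses them. ZEB1 is a zinc finger and homeodomain repressor, first isolated in chicken as the delta-crystallin enhancer binding factor. It silences CDH1 and other epithelial genes in the epithelial-mesenchymal transition, in which cells lose their junctions and become motile.

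Poly(A) RNA was sequenced in 9 libraries of PGCs in 3 groups of 3: Lin28-aKO (genotype given as Lin28A knockout), Lin28-bKO (Lin28B knockout) and control (wild type with a control vector). Both LIN28 proteins bind RNA and are best known for holding back the processing of let-7 microRNAs, and the study asked about their part in keeping PGCs. The labels give neither the way the genes were disrupted nor the clones, sex, age or passage of the cells, and they do not say that replicates were separate cultures. The p-values therefore reflect how much these libraries vary, which may be technical. Totals ran from 27.7 to 32.2 M counts.

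The targeted transcript was not lower in both knockouts. LIN28A stood at 117, 109 and 17.7 CPM (counts scaled to library size by TMM) in Lin28-aKO replicates 1, 2 and 3, against 160, 144 and 244 CPM in control. The log2 fold change of LIN28A was −1.17 ± 0.53 in Lin28-aKO and 0.12 ± 0.53 in Lin28-bKO (SE; edgeR adjusted p = 0.479 and 0.958). LIN28B stood at 55.0, 59.6 and 50.3 CPM in the libraries labelled Lin28-bKO, against 52.2, 45.4 and 61.9 CPM in control, and so was not lower in them. In Lin28-aKO, by contrast, every library of LIN28B lay below every control library, as did 9.78% of all tested genes. The log2 fold change of LIN28B was −0.41 ± 0.14 in Lin28-aKO and 0.05 ± 0.14 in Lin28-bKO (SE; edgeR adjusted p = 0.327 and 0.929). The description field of the Lin28-bKO libraries names the result table of Lin28-aKO in place of their own. Lin28-aKO and Lin28-bKO hence stand throughout for the libraries so labelled. In every group replicates 1 and 2 lay close together and replicate 3 stood apart, by root mean square log2 differences over 10151 genes of 0.137 to 0.164 between replicates 1 and 2 and 0.365 to 0.725 between either of them and replicate 3. The 10 germ cell markers found by symbol, of 11 listed, with DDX4, DAZL and NANOG among them, summed to 3760 to 4170 CPM in Lin28-aKO, 4470 to 4660 CPM in Lin28-bKO and 4480 to 4600 CPM in control.

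OTX1 was at 7.88, 8.23 and 17.5 CPM in Lin28-bKO replicates 1, 2 and 3, against 29.5, 29.7 and 37.2 CPM in control. All 3 Lin28-bKO libraries lay below all control libraries, and replicate 3 was the highest in both groups. The means were 11.2 ± 5.46 CPM in Lin28-bKO and 32.1 ± 4.39 CPM in control (SD, n = 3 each), a log2 fold change of −1.52 ± 0.38 (SE), or 2.87-fold lower. Such a complete separation downward was seen for 11.4% of all tested genes in this comparison. Because the rule chose on it, nothing is read from the separation of the members.

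JDP2 was at 6.46, 5.48 and 12.7 CPM in Lin28-bKO, against 21.7, 19.7 and 32.2 CPM in control. These groups did not overlap either, and again replicate 3 was the highest library of its group. The means were 8.20 ± 3.90 CPM in Lin28-bKO and 24.5 ± 6.75 CPM in control (SD, n = 3 each), a log2 fold change of −1.58 ± 0.34 (SE), or 2.99-fold lower.

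ZEB1 was at 13.0, 13.7 and 25.5 CPM in Lin28-bKO, against 22.8, 24.9 and 53.1 CPM in control. Here the groups overlapped, since Lin28-bKO replicate 3 lay above control replicates 1 and 2. The means were 17.4 ± 7.03 CPM in Lin28-bKO and 33.6 ± 17.0 CPM in control (SD, n = 3 each), a log2 fold change of −0.95 ± 0.41 (SE), or 1.93-fold lower. Without control replicate 3 the log2 fold change was −0.45 ± 0.37, in a fit that kept the high replicate 3 of Lin28-bKO. With replicates 1 and 2 of every group alone it was −0.84 ± 0.11 (SE).

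**Figure D1:**
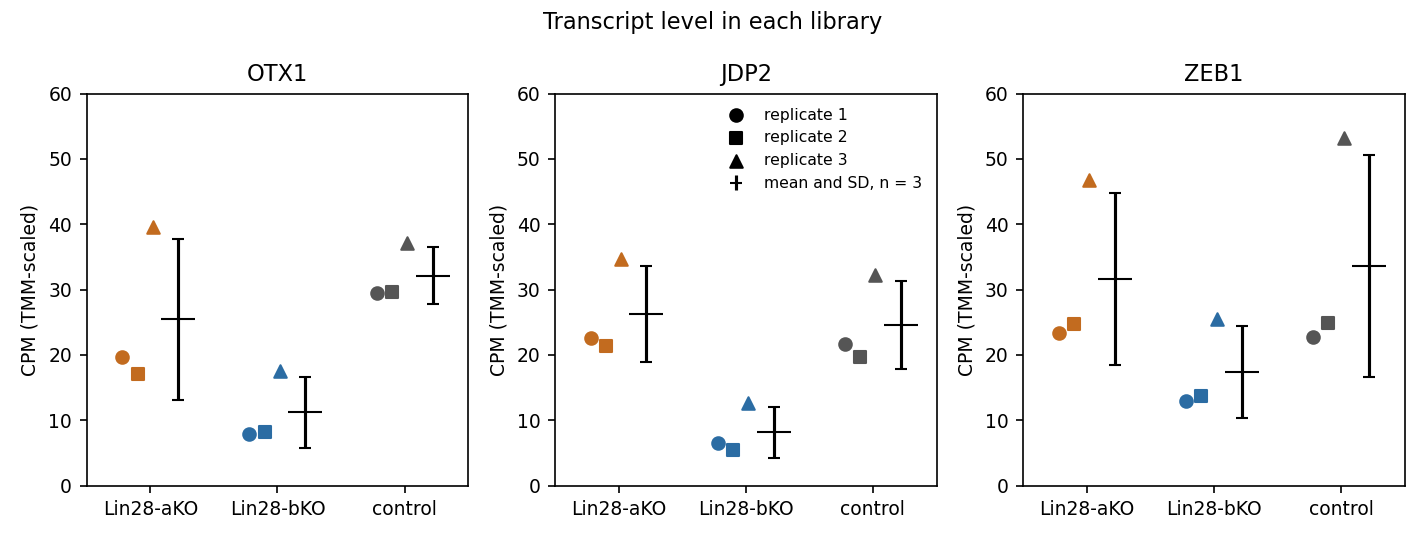
TMM-scaled CPM (y axis) of OTX1, JDP2 and ZEB1 in the 3 Lin28-aKO, 3 Lin28-bKO and 3 control libraries, with the replicate number as the symbol and the mean with its SD (n = 3) as a dash with a bar. OTX1 and JDP2 in Lin28-bKO lie below every control library, ZEB1 in Lin28-bKO replicate 3 (25.5 CPM) lies above control replicates 1 and 2, and replicate 3 is the highest library of each group for each gene.

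Libraries with the same replicate number deviated together across genes, although this did not separate replicate 1 from replicate 2, whose pairing rests on the labels. Each knockout library was also set against the control library of its own number. For ZEB1 this gave 57.0%, 55.1% and 48.0% of control in Lin28-bKO replicates 1, 2 and 3. The mean log2 ratio of ZEB1 was −0.91 with an SD of 0.13 (n = 3), although the groups overlap when the numbers are ignored. JDP2 in Lin28-bKO reached 29.7%, 27.9% and 39.3% of the control with its number, a mean log2 ratio of −1.65 with an SD of 0.26. OTX1 reached 26.7%, 27.7% and 47.1%, a mean log2 ratio of −1.61 with an SD of 0.46. With the replicate number as a block, the log2 fold changes in Lin28-bKO were −1.63 ± 0.20 for OTX1, −1.64 ± 0.15 for JDP2 and −0.91 ± 0.11 for ZEB1 (SE). The block left the estimates within 0.11 of the unblocked ones and lowered the standard error of each.

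In Lin28-aKO none of the 3 genes passed the test, in a comparison where edgeR called 1 of 15475 genes at an adjusted p under 0.05 (0.00646%). The 3 genes also did not pass with the replicate block (adjusted p = 0.351 to 0.869; 0.084% of genes called) or by DESeq2 (adjusted p = 0.821 to 0.974; 2.11% called). JDP2 was at 22.6, 21.4 and 34.6 CPM in Lin28-aKO, against 21.7, 19.7 and 32.2 CPM in control. Library by library this was 104%, 109% and 107% of the same-numbered control. The log2 fold change of JDP2 was 0.10 ± 0.33 (SE; edgeR adjusted p = 0.949), with a 95% interval of −0.65 to 0.84, and with the block an interval of −0.24 to 0.43.

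ZEB1 was at 23.4, 24.7 and 46.8 CPM in Lin28-aKO, against 22.8, 24.9 and 53.1 CPM in control. The knockout libraries were at 103%, 99.5% and 88.1% of the same-numbered control. The log2 fold change of ZEB1 was −0.09 ± 0.40 (SE; edgeR adjusted p = 0.966), with a 95% interval of −0.98 to 0.81, and with the block an interval of −0.31 to 0.20.

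OTX1 was at 19.8, 17.0 and 39.6 CPM in Lin28-aKO, against 29.5, 29.7 and 37.2 CPM in control. Replicates 1 and 2 of Lin28-aKO were below every control library, at 67.0% and 57.4% of the same-numbered control, and replicate 3 was above every control library, at 106% of its own. With the replicate block the log2 fold change of OTX1 was −0.44 ± 0.19 (SE; edgeR adjusted p = 0.351), with a 95% interval of −0.89 to 0.008. Over all libraries without the block it was −0.34 ± 0.37 (SE; edgeR adjusted p = 0.797), with a 95% interval of −1.16 to 0.49. Without Lin28-aKO replicate 3 the value was −0.80 ± 0.32, and without Lin28-aKO replicate 1 or 2 or control replicate 3 it was −0.18, −0.12 or −0.22, all short of the threshold (edgeR adjusted p = 0.219 to 0.939). Fitted on replicates 1 and 2 of every group alone, it was −0.69 ± 0.12 and passed (edgeR adjusted p = 3.52e-05). In this comparison the fit called 30.1% of all genes it tested in either direction, and 14.8% of all genes it tested as lower. That fit holds only the replicates that lie close together in every group. LIN28A transcript also set these libraries apart, at 117 and 109 CPM in Lin28-aKO replicates 1 and 2 and 17.7 CPM in replicate 3, and its part in the OTX1 difference was not tested.

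**Figure D2:**
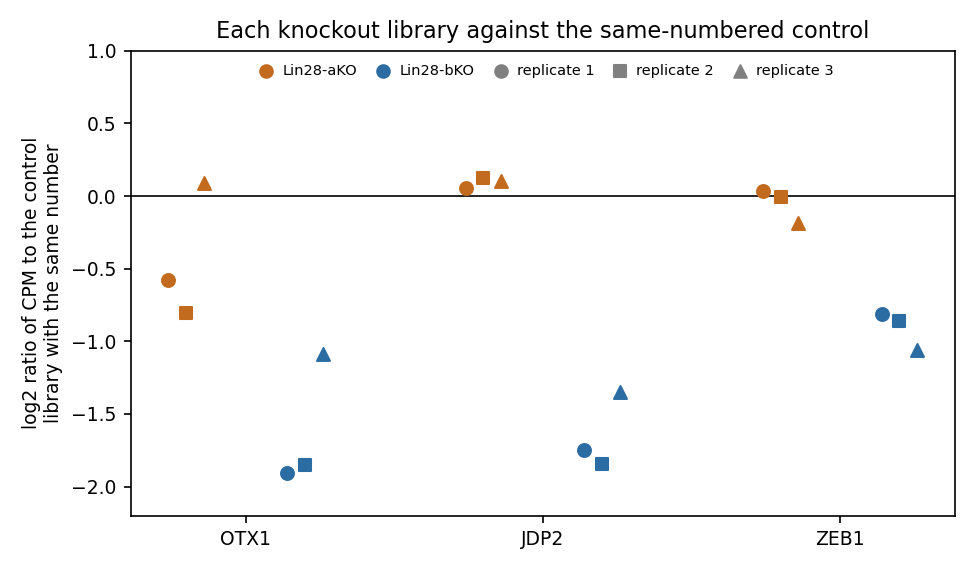
Log2 ratio of CPM in each knockout library to the control library of the same replicate number (y axis) for OTX1, JDP2 and ZEB1, with Lin28-aKO at the left and Lin28-bKO at the right of each gene and the replicate number as the symbol. All 9 Lin28-bKO points lie below 0, from −1.90 to −0.81, whereas JDP2 and ZEB1 in Lin28-aKO lie between −0.18 and 0.12 and OTX1 in Lin28-aKO spreads from −0.80 to 0.09.

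Ordered by mean, OTX1 ran from Lin28-bKO (11.2 CPM) through Lin28-aKO (25.5 ± 12.3 CPM) to control (32.1 CPM). The neighbouring groups Lin28-aKO and control overlapped, and so did Lin28-bKO and Lin28-aKO, where Lin28-bKO replicate 3 (17.5 CPM) was just above Lin28-aKO replicate 2 (17.0 CPM). For JDP2 the order was Lin28-bKO (8.20 CPM), control (24.5 CPM) and Lin28-aKO (26.2 ± 7.33 CPM), and the last 2 groups overlapped almost fully. For ZEB1 it was Lin28-bKO (17.4 CPM), Lin28-aKO (31.7 ± 13.1 CPM) and control (33.6 CPM), with overlap between all neighbours. Set directly against each other, Lin28-aKO over Lin28-bKO gave log2 fold changes of 1.18 ± 0.38 for OTX1, 1.68 ± 0.34 for JDP2 and 0.86 ± 0.41 for ZEB1 (SE), as a description, since the rule used the Lin28-bKO libraries. JDP2 in Lin28-aKO lay wholly above Lin28-bKO, as did 11.7% of all tested genes, and nothing is read from it, since the rule used these libraries. Without Lin28-aKO replicate 3, with that of Lin28-bKO kept, the values for OTX1 and ZEB1 were 0.71 ± 0.31 and 0.47 ± 0.39. With replicates 1 and 2 of every group alone they were 1.19 ± 0.13 and 0.85 ± 0.11 (SE).

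The authors' deposited tables, which compare each knockout with control by DESeq2, hold similar log2 fold changes. For Lin28-bKO the authors' deposited table lists −1.52 ± 0.31 for OTX1, −1.58 ± 0.33 for JDP2 and −0.95 ± 0.36 for ZEB1 (SE). For Lin28-aKO the authors' deposited table lists −0.33 ± 0.34 for OTX1, 0.10 ± 0.29 for JDP2 and −0.08 ± 0.41 for ZEB1 (SE). Both comparisons share the control libraries.

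The order of libraries within a group is not named in the rule, although the rule drew on the same counts, replicate 3 included. Replicate 3 was the highest library of each group for all 3 genes. OTX1 in replicate 3 was 2.15 times the mean of replicates 1 and 2 in Lin28-aKO, 2.17 times in Lin28-bKO and 1.26 times in control. JDP2 in replicate 3 was 1.58 times that mean in Lin28-aKO, 2.12 times in Lin28-bKO and 1.56 times in control. ZEB1 in replicate 3 was 1.94 times that mean in Lin28-aKO, 1.91 times in Lin28-bKO and 2.23 times in control. The ratio of replicate 1 to replicate 2, in contrast, lay between 0.918 and 1.18 for the 3 genes in all groups. Among all tested genes 2435, or 15.7%, were highest in replicate 3 in every group. For ZEB1 the step from replicates 1 and 2 to replicate 3 was thus as large as the 1.93-fold difference between Lin28-bKO and control. Counts of the 3 genes ranged from 153 to 1424 per library, and 3 counts in a library equalled 0.0904 to 0.112 CPM.

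The genes with the most similar pattern over the 9 libraries were taken by the highest Pearson r of log2 CPM among 9202 other genes that had a symbol and averaged at least 3 on the log2 CPM scale. The r reflects the replicate 3 step as well as the low Lin28-bKO libraries, and is given as a description. For OTX1 they were CDT1, which licenses DNA replication origins (r = 0.978, Spearman rho = 0.967), the cholinesterase BCHE (r = 0.977, rho = 0.933), the secreted synaptic protein gene CBLN1 (r = 0.976, rho = 0.950) and the RNA-binding protein gene FXR1 (r = 0.975, rho = 0.950). Without the 2 libraries farthest from the OTX1 median these r values were 0.990, 0.920, 0.956 and 0.940. Their differences were smaller than that of OTX1. CDT1 averaged 147 ± 15.1 CPM in Lin28-bKO and 202 ± 10.4 CPM in control (SD, n = 3 each), and FXR1 averaged 310 ± 24.2 CPM in Lin28-bKO and 352 ± 3.47 CPM in control (SD, n = 3 each).

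JDP2 was matched most closely by STC2, which encodes the secreted glycoprotein stanniocalcin 2 (r = 0.991, rho = 0.983). STC2 stood at 41.6, 31.1 and 84.7 CPM in Lin28-bKO, against 108, 108 and 162 CPM in control, and so had the same order of libraries within each of these groups except that control replicates 1 and 2 were nearly equal. Next came PYCR1, an enzyme of proline synthesis (r = 0.989, rho = 0.900), YARS, the tyrosyl-tRNA synthetase (r = 0.988, rho = 0.933), and EDF1, a factor that acts on stalled ribosomes (r = 0.984, rho = 0.950). Without the 2 libraries farthest from the JDP2 median the r values were 0.964, 0.971, 0.960 and 0.938. PYCR1 averaged 227 ± 51.7 CPM in Lin28-bKO and 395 ± 46.1 CPM in control, and YARS averaged 87.8 ± 20.3 CPM in Lin28-bKO and 132 ± 7.13 CPM in control (SD, n = 3 each).

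ZEB1 was matched by RFWD2, a ubiquitin ligase gene also called COP1 (r = 0.993, rho = 0.950), SEPSECS, an enzyme that makes selenocysteine (r = 0.992, rho = 0.883), and PRKACB, a catalytic subunit of protein kinase A (r = 0.989, rho = 0.867). Without the 2 libraries farthest from the ZEB1 median the r values were 0.985, 0.988 and 0.991. SEPSECS was at 30.5, 34.8 and 60.8 CPM in Lin28-bKO, against 54.7, 53.3 and 98.5 CPM in control. RFWD2 moved far less, at 27.2, 27.2 and 36.6 CPM in Lin28-bKO, against 34.0, 37.3 and 48.3 CPM in control.

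**Figure D3:**
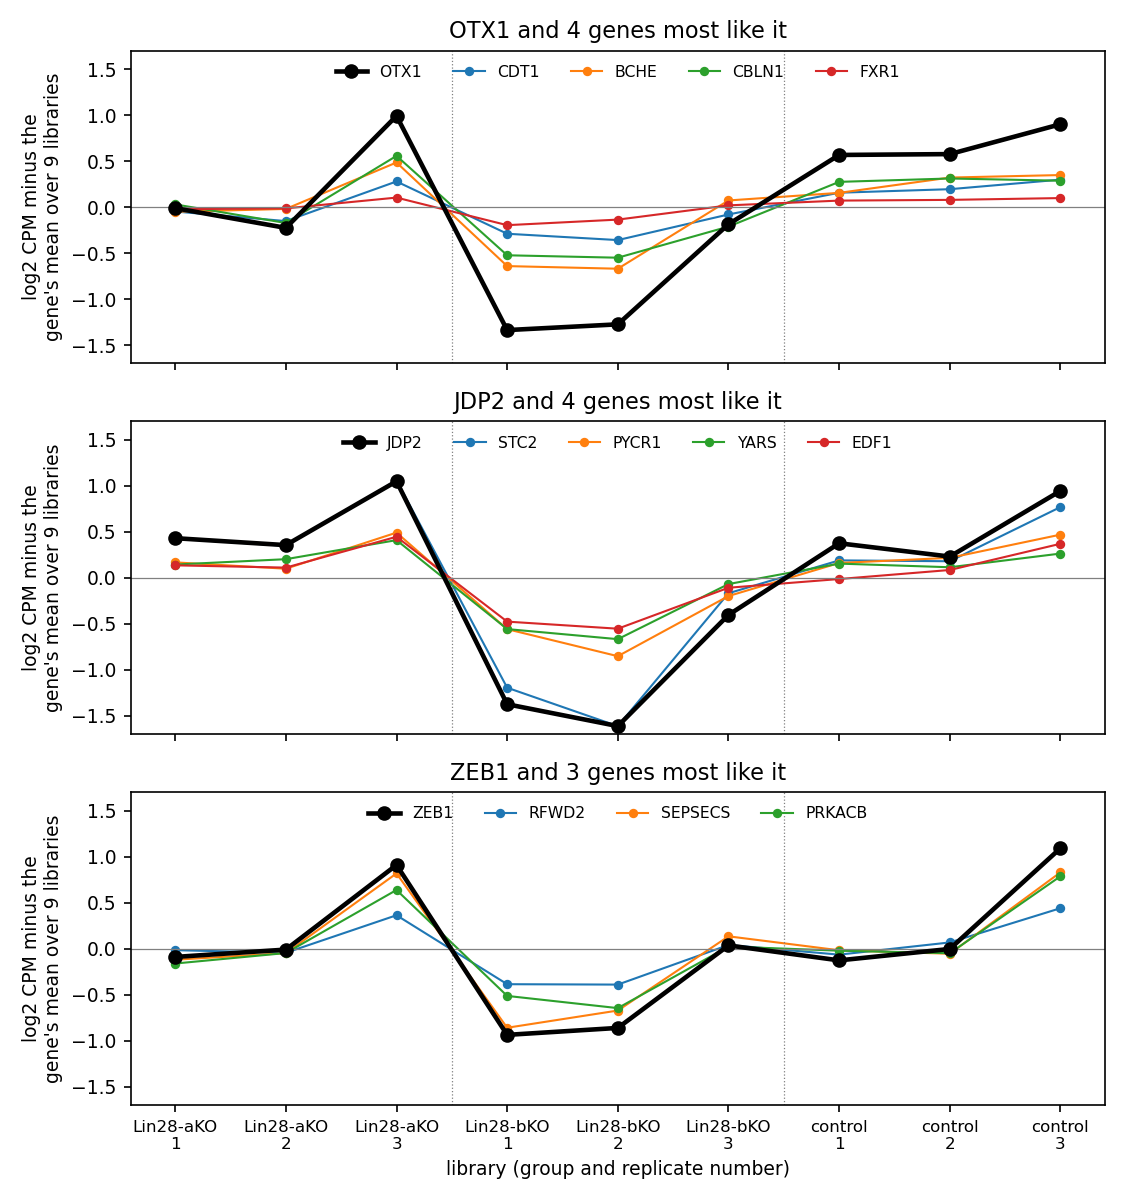
Log2 CPM minus the mean of each gene over the 9 libraries (y axis) by library (x axis; Lin28-aKO, Lin28-bKO, control, replicates 1 to 3), with OTX1, JDP2 or ZEB1 as the thick black line and the genes most like it as thin lines (4 each for OTX1 and JDP2, 3 for ZEB1). The lines only link the libraries by eye. All genes dip in Lin28-bKO replicates 1 and 2, and STC2 follows JDP2 in size as well as in shape (r = 0.991).

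The close relatives of the 3 factors did not pass edgeR over all libraries in either knockout, and DESeq2 called ZEB2 in Lin28-aKO. OTX2, the paralogue of OTX1, was at 51.7, 52.3 and 48.4 CPM in Lin28-bKO, against 55.0, 51.0 and 61.8 CPM in control (log2 fold change −0.14 ± 0.30, SE; edgeR adjusted p = 0.905). In Lin28-aKO OTX2 was at 61.2, 61.5 and 23.3 CPM, so that its replicate 3 was the low library where that of OTX1 was the high one (log2 fold change −0.20 ± 0.30, SE; edgeR adjusted p = 0.861). CRX, the other member of the family, has no row under that symbol.

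ZEB2, the paralogue of ZEB1, was at 8.22, 7.62 and 14.9 CPM in Lin28-aKO and 11.1, 11.9 and 14.0 CPM in Lin28-bKO, against 18.1, 17.3 and 43.8 CPM in control. Every knockout library of ZEB2 lay below every control library, as did 9.78% of all tested genes in Lin28-aKO and 11.4% in Lin28-bKO. The log2 fold change of ZEB2 was −1.37 ± 0.39 in Lin28-aKO (SE; edgeR adjusted p = 0.257, with the block 0.0803, DESeq2 0.0238). In Lin28-bKO the log2 fold change of ZEB2 was −1.10 ± 0.38 (SE; edgeR adjusted p = 0.502, with the block 0.124, DESeq2 0.175). In the same Lin28-aKO comparison ZEB1 was at a log2 fold change of −0.09.

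Among relatives and partners of JDP2, ATF3, a stress-induced repressor at the same DNA sites, was at 9.28, 7.27 and 14.0 CPM in Lin28-bKO, against 20.7, 24.5 and 29.2 CPM in control. All Lin28-bKO libraries lay below all control libraries, as was so for 11.4% of all tested genes. The log2 fold change of ATF3 was −1.28 ± 0.53 (SE; edgeR adjusted p = 0.554). In Lin28-aKO ATF3 was at 20.9, 25.0 and 98.1 CPM, with replicate 3 far above every other library (log2 fold change 0.95 ± 0.52, SE; edgeR adjusted p = 0.566). JUN, the AP-1 subunit, showed the same high library, at 56.8, 61.3 and 187 CPM in Lin28-aKO and 55.1, 54.5 and 36.2 CPM in Lin28-bKO, against 67.0, 63.7 and 67.4 CPM in control. The JUN log2 fold change was 0.62 ± 0.40 in Lin28-aKO and −0.44 ± 0.40 in Lin28-bKO (SE; edgeR adjusted p = 0.629 and 0.761).

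FOS and BATF encode bZIP proteins and lie next to JDP2 on either side in the RefSeq gene order of the chicken assembly GRCg7b. FOS was at 12.5, 12.6 and 3.07 CPM in Lin28-bKO, against 6.86, 6.14 and 5.93 CPM in control (log2 fold change 0.57 ± 0.45, SE; edgeR adjusted p = 0.728). BATF was at 2.86, 2.00 and 3.61 CPM in Lin28-bKO, against 2.59, 2.42 and 2.35 CPM in control (log2 fold change 0.20 ± 0.43, SE; edgeR adjusted p = 0.905). In Lin28-aKO FOS and BATF were at log2 fold changes of 0.10 ± 0.45 and 0.22 ± 0.43 (SE; edgeR adjusted p = 0.962 and 0.900). BATF3, a further relative, was at 1.37 ± 0.67 CPM in Lin28-bKO and 1.69 ± 0.16 CPM in control (SD, n = 3 each; edgeR adjusted p = 0.855), and its log2 fold change in Lin28-aKO was 0.08 ± 0.43 (SE; edgeR adjusted p = 0.970).

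**Figure D4:**
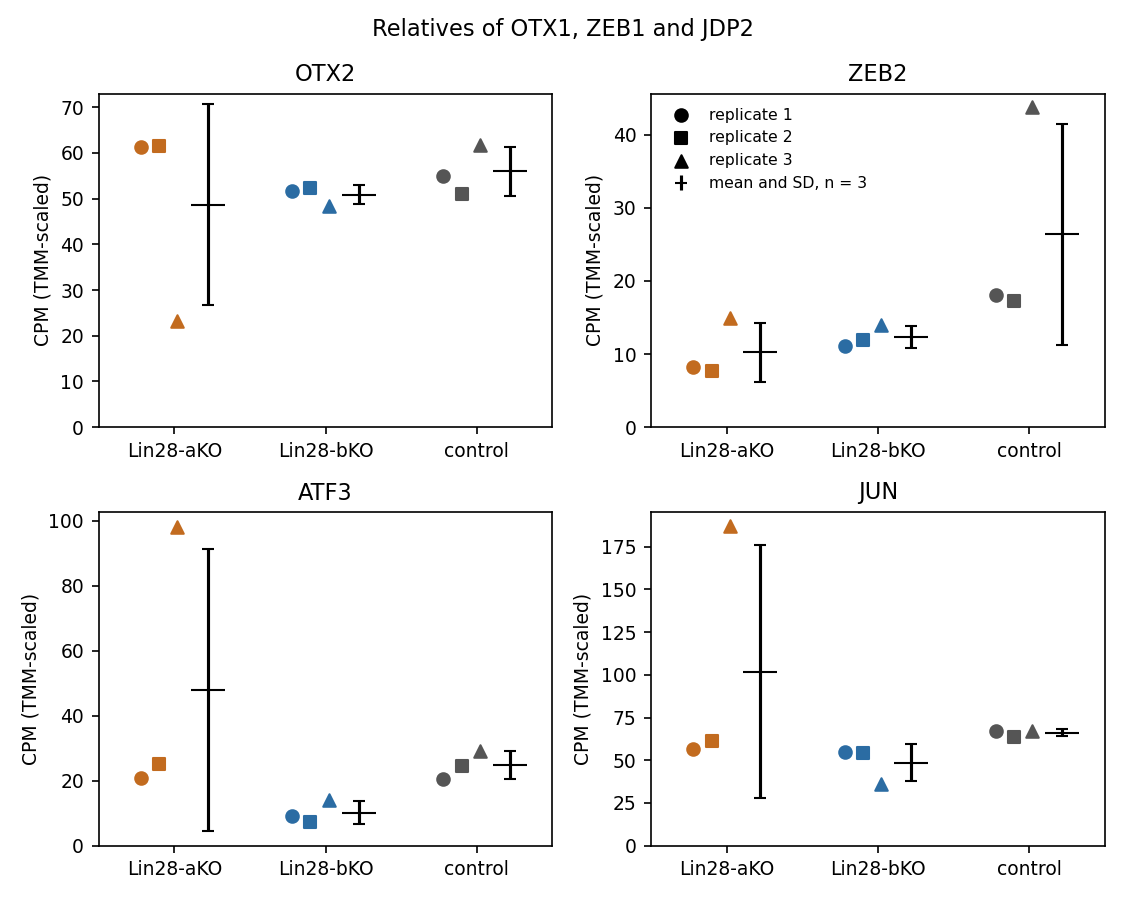
TMM-scaled CPM (y axis, each panel on its own scale from 0) of OTX2, ZEB2, ATF3 and JUN in the Lin28-aKO, Lin28-bKO and control libraries, with the replicate number as the symbol and the mean with its SD (n = 3) as a dash with a bar. ATF3 and JUN are far higher in Lin28-aKO replicate 3 (98.1 and 187 CPM) than elsewhere, OTX2 is lowest there (23.3 CPM), and every knockout library of ZEB2 lies below every control library.

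Further neighbours in that gene order did not pass edgeR, with or without the block, or DESeq2 in Lin28-bKO. EHBP1 and TMEM17 on one side of OTX1 and WDPCP and MDH1 on the other had log2 fold changes between −0.50 and 0.25 (edgeR adjusted p = 0.636 to 0.790). TMED10, beyond FOS, was at −0.08 ± 0.09 and FLVCR2, beyond BATF, at 0.37 ± 0.27 (SE; edgeR adjusted p = 0.796 and 0.706). On one side of ZEB1, ARHGAP12 and KIF5B were at −0.09 ± 0.14 and 0.05 ± 0.18 (SE; edgeR adjusted p = 0.867 and 0.952). On the other side ZNF438 was at −0.24 ± 0.21 (SE; edgeR adjusted p = 0.752), and the gene between it and ZEB1 has no row under its RefSeq symbol. In Lin28-aKO the same 9 genes had log2 fold changes between −0.35 and 0.36 (edgeR adjusted p = 0.535 to 0.855).

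The bZIP relatives of JDP2 were described as a group of 33 tested genes out of 44 listed. In Lin28-bKO 21 of 33 lay below control, against 50.2% of all tested genes, with a median log2 fold change of −0.19 against 0.00 over all tested genes. In 10 of 33 the Lin28-bKO libraries were all below the control libraries, against 11.4% of all tested genes. EdgeR called 0 of the 33 with or without the block (2 of 15475 genes, 0.0129%, without it and 0.155% with it), DESeq2 called 0 (0.748% of all genes), and 8 were lower at an unadjusted p under 0.05 (8.87% of all genes, in either direction). ATF4, the master factor of the amino acid stress response, was at 308, 297 and 455 CPM in Lin28-bKO, against 515, 512 and 541 CPM in control (log2 fold change −0.56 ± 0.16, SE; edgeR adjusted p = 0.457, with the block 0.0942). NFE2L1, which drives proteasome genes, was at −0.41 ± 0.13 (SE; edgeR adjusted p = 0.476). CEBPB, a bZIP factor chosen after its values were seen, had 18.6, 15.5 and 29.3 CPM in Lin28-bKO, against 46.7, 49.7 and 53.4 CPM in control, and so was among those with no overlap (edgeR adjusted p = 0.457). Without Lin28-bKO replicate 3 edgeR called 2 of the list lower, against 0.0442% of all genes tested in that fit. Without Lin28-aKO replicate 3, which enters this comparison only through the shared fit, edgeR called 3 lower, against 0.563% of all genes.

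In Lin28-aKO 28 of the same 33 bZIP genes lay above control, against 52.7% of all tested genes, with a median of 0.22 against 0.02. EdgeR called 0 of them with or without the block, and DESeq2 called 1 higher (2.11% of all genes called, in either direction). At an unadjusted p under 0.05, 1 was higher (10.6% of all genes, in either direction). The list median per library, relative to the control mean on the log2 scale, was 0.12, 0.01 and 0.44 in Lin28-aKO and −0.26, −0.28 and −0.11 in Lin28-bKO, against −0.08, −0.05 and 0.11 in control. ATF4 was at 0.09 ± 0.16 and NFE2L1 at −0.05 ± 0.13 in Lin28-aKO (SE; edgeR adjusted p = 0.887 and 0.932). The gene that DESeq2 called was CREB3L1, a membrane-bound bZIP factor, at 5.60, 6.46 and 9.51 CPM in Lin28-aKO, against 1.71, 1.91 and 1.60 CPM in control (DESeq2 adjusted p = 6.32e-05, edgeR 0.126). The median was highest in Lin28-aKO replicate 3, the library with the high ATF3 and JUN, and without it edgeR called 2 of the list higher, against 1.90% of all genes tested in that fit.

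Epithelial junction and keratin genes, among them classic targets of ZEB1 repression, made a group of 20 tested genes out of 28 listed. In Lin28-bKO 18 of 20 lay above control, against 49.8% of all tested genes, with a median log2 fold change of 0.52 against 0.00. In 9 of 20 all Lin28-bKO libraries were above all control libraries, against 11.6% of all tested genes. EdgeR called 0 of the 20 with or without the block, and DESeq2 called 1 higher (0.748% of all genes called, in either direction). At an unadjusted p under 0.05, 7 were higher (8.87% of all genes, in either direction). Without Lin28-aKO replicate 3, which is in neither group, edgeR called 2 of them higher, against 0.487% of all genes tested in that fit. The list median per library was 0.52, 0.72 and 0.26 in Lin28-bKO and 0.16, 0.15 and 0.27 in Lin28-aKO, against 0.04, 0.13 and −0.22 in control. All libraries of both knockouts thus had a higher median than every control library, though Lin28-aKO replicate 2 (0.148) was barely above control replicate 2 (0.134).

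CDH1, which encodes E-cadherin and was chosen after its values were seen, was at 101, 107 and 46.4 CPM in Lin28-bKO, against 49.3, 48.1 and 28.4 CPM in control (log2 fold change 1.01 ± 0.30, SE; edgeR adjusted p = 0.470, with the block 0.0865). Its groups overlapped, and each library was above the control of its own number. EPCAM, an adhesion molecule of epithelia, was at 977, 920 and 835 CPM in Lin28-bKO, against 703, 744 and 608 CPM in control. All Lin28-bKO libraries of EPCAM lay above control, as did 11.6% of all tested genes (log2 fold change 0.41 ± 0.11, SE; edgeR adjusted p = 0.410, with the block 0.0905). CLDN1, a tight junction claudin and the most abundant of the list, was at −0.12 ± 0.12 (SE; edgeR adjusted p = 0.794). The gene that DESeq2 called was ST14, the membrane protease matriptase, at 56.2, 64.4 and 43.4 CPM in Lin28-bKO, against 31.3, 28.4 and 32.0 CPM in control (DESeq2 adjusted p = 0.0169, edgeR 0.348).

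In Lin28-aKO 15 of the 20 epithelial genes lay above control, against 52.7% of all tested genes, with a median of 0.18 against 0.02. In 5 of 20 all Lin28-aKO libraries were above all control libraries, against 8.21% of all tested genes. EdgeR called 0 with or without the block, and DESeq2 called 1 higher, again ST14 (DESeq2 adjusted p = 0.0207, edgeR 0.207; 2.11% of all genes called by DESeq2). At an unadjusted p under 0.05, 4 were higher (10.6% of all genes, in either direction). Without Lin28-aKO replicate 3 edgeR called 2 of the epithelial genes higher in this comparison, against 1.90% of all genes. CDH1 was at 75.4, 75.0 and 63.3 CPM in Lin28-aKO, all above the control libraries, as were 8.21% of all tested genes (log2 fold change 0.77 ± 0.30, SE; edgeR adjusted p = 0.412). EPCAM was at 0.03 ± 0.11 and CLDN1 at −0.12 ± 0.12 in Lin28-aKO (SE; edgeR adjusted p = 0.949 and 0.780). CDH1 passed edgeR in neither knockout.

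The co-factors of ZEB1 and other regulators of the transition gave 15 tested genes out of 21 listed. In Lin28-bKO 11 of 15 lay below control, against 50.2% of all tested genes, with a median of −0.26. In Lin28-aKO 7 of 15 lay below control, against 47.3%, with a median of 0.17. EdgeR called 0 of them in either knockout with or without the block. DESeq2 called 0 in Lin28-bKO (0.748% of all genes called) and 1 in Lin28-aKO (2.11% called), which was ZEB2. In each comparison 3 had an unadjusted p under 0.05, against 8.87% of all genes in Lin28-bKO and 10.6% in Lin28-aKO. Without Lin28-aKO replicate 3 edgeR called 1 higher and 1 lower in Lin28-aKO, against 1.90% and 0.967% of all genes. TCF12, a basic helix-loop-helix factor that binds the same E-boxes, was at −0.26 ± 0.14 in Lin28-bKO and −0.03 ± 0.14 in Lin28-aKO (SE; edgeR adjusted p = 0.613 and 0.962). ESRP2, an epithelial splicing factor, was at 364, 378 and 246 CPM in Lin28-bKO, against 264, 259 and 140 CPM in control (log2 fold change 0.58 ± 0.27, SE; edgeR adjusted p = 0.586, with the block 0.0652). In Lin28-aKO ESRP2 was at 0.17 ± 0.27 (SE; edgeR adjusted p = 0.872). ESRP2 ran opposite to ZEB1 over replicates, with replicate 3 the lowest library of each group.

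Mesenchymal genes, which ZEB1 is known to accompany, gave 11 tested genes out of 14 listed. In each knockout 7 of 11 lay above control, against 49.8% of all tested genes in Lin28-bKO and 52.7% in Lin28-aKO. The medians were 0.48 in Lin28-bKO and 0.51 in Lin28-aKO. EdgeR called 0 in either with or without the block. DESeq2 called 1 higher in Lin28-bKO (0.748% of all genes called) and 2 higher and 1 lower in Lin28-aKO (2.11% called). An unadjusted p under 0.05 was held by 2 and 5, against 8.87% and 10.6% of all genes. Leaving out Lin28-aKO replicate 3 gave 1 mesenchymal gene called higher by edgeR in each knockout, against 1.90% of all genes in Lin28-aKO and 0.487% in Lin28-bKO. The intermediate filament gene VIM was at 774, 712 and 1103 CPM in Lin28-bKO, against 769, 766 and 1082 CPM in control (log2 fold change −0.02 ± 0.23, SE; edgeR adjusted p = 0.988). N-cadherin, CDH2, was at 171, 162 and 363 CPM in Lin28-bKO, against 265, 256 and 470 CPM in control (log2 fold change −0.51 ± 0.35, SE; edgeR adjusted p = 0.693, with the block 0.0996). In Lin28-aKO VIM was at −0.90 ± 0.23 and CDH2 at −0.90 ± 0.35 (SE; edgeR adjusted p = 0.214 and 0.405), and DESeq2 called VIM lower (adjusted p = 0.0282). DESeq2 called TNC, the matrix glycoprotein tenascin C, higher in both knockouts (adjusted p = 0.000992 in Lin28-aKO and 0.000293 in Lin28-bKO; edgeR 0.168 and 0.300). TNC was at 28.3, 25.8 and 57.9 CPM in Lin28-aKO and 44.5, 51.7 and 30.1 CPM in Lin28-bKO, against 14.0, 14.2 and 6.98 CPM in control. FN1, which encodes fibronectin, was called higher by DESeq2 in Lin28-aKO (adjusted p = 0.0156, edgeR 0.236), at 276, 279 and 113 CPM in Lin28-aKO, against 110, 89.0 and 71.2 CPM in control. CDH2, like ZEB1, was highest in replicate 3 of each group, whereas the median of the mesenchymal list was lowest there in each group. Relative to the control mean on the log2 scale that median was 1.337, 1.205 and −0.422 in Lin28-aKO. It was 0.710, 0.793 and 0.358 in Lin28-bKO, against 0.321, 0.005 and −0.454 in control.

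The OTX family and anterior head genes gave 22 tested genes out of 25 listed. In Lin28-bKO 12 of 22 lay below control, against 50.2% of all tested genes, with a median of −0.07. In Lin28-aKO 13 of 22 lay below control, against 47.3%, with a median of −0.14. In Lin28-aKO 1 gene (CER1) was at 0 counts in every library. The Lin28-aKO median was the same with CER1 set to the floor of 3 counts per library. EdgeR called 0 in either with or without the block. At an unadjusted p under 0.05 there were 2 in Lin28-bKO and 6 in Lin28-aKO, against 8.87% and 10.6% of all genes. DESeq2 called 1 lower in Lin28-bKO (0.748% of all genes called) and 2 higher and 2 lower in Lin28-aKO (2.11% called). Leaving out Lin28-aKO replicate 3, edgeR called 3 higher in Lin28-aKO and 1 higher in Lin28-bKO, against 1.90% and 0.487% of all genes. SOX3, the most abundant of them and a SOX factor of neural and germ cell precursors, was at 270, 279 and 197 CPM in Lin28-bKO and 261, 254 and 238 CPM in Lin28-aKO, against 310, 313 and 288 CPM in control. These were log2 fold changes of −0.29 ± 0.13 and −0.27 ± 0.13 (SE; edgeR adjusted p = 0.576 and 0.512). SOX2, called lower by DESeq2 in both knockouts, was at 0.32, 0.82 and 2.41 CPM in Lin28-bKO and 1.60, 1.31 and 1.69 CPM in Lin28-aKO, against 4.77, 3.72 and 12.6 CPM in control (DESeq2 adjusted p = 0.0151 and 0.0300, edgeR 0.410 and 0.295). The other gene called lower by DESeq2 in Lin28-aKO was CER1 (adjusted p = 3.5e-05, edgeR 0.155). The genes called higher by DESeq2 in Lin28-aKO were the growth factor gene FGF8 and the homeobox gene EN1 (DESeq2 adjusted p = 0.000286 and 0.00358, edgeR 0.180 and 0.126). FGF8 was at 14.7, 16.5 and 1.52 CPM in Lin28-aKO, against 1.43, 1.52 and 0.821 CPM in control, and so was far higher in replicates 1 and 2 than in replicate 3. EN1 was at 1.26, 1.28 and 1.17 CPM in Lin28-aKO, against 0.31, 0.19 and 0.22 CPM in control.

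**Figure D5:**
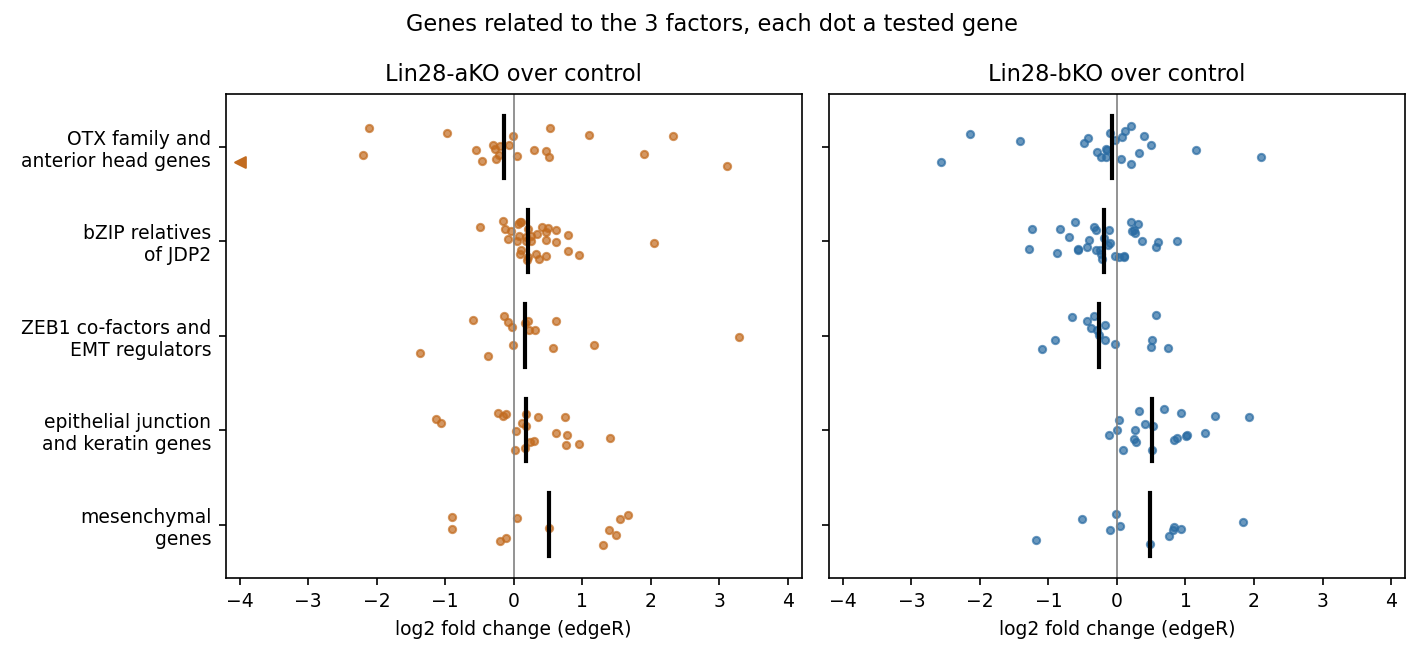
Log2 fold change of Lin28-aKO over control (left) and Lin28-bKO over control (right) from edgeR (x axis) for the tested genes of 5 lists related to OTX1, JDP2 and ZEB1 (y axis), each dot a gene and the black line the list median. CER1, with 0 counts in every Lin28-aKO library, is drawn as a triangle at the left edge. Epithelial genes have a median of 0.52 in Lin28-bKO and bZIP genes one of −0.19, against 0.18 and 0.22 in Lin28-aKO, and no dot is a gene called by edgeR over all libraries.

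Markers of other cell types ranged widely in level, and some were as abundant as some germ cell markers. In Lin28-aKO replicate 3 the neural marker ELAVL4 was at 736 CPM, against 516 for DDX4, 449 for NANOG and 1506 for DAZL. In Lin28-bKO replicate 3 the fibroblast marker COL1A2 was at 720 CPM, against 820 for DDX4, 632 for NANOG and 1791 for DAZL. Fibroblasts are cells known to express ZEB1, and their 12 markers summed to 567 to 1490 CPM in Lin28-aKO and 541 to 1110 CPM in Lin28-bKO, against 695 to 1110 CPM in control, with none of them at 0 in a whole group. Of these markers 9 of 12 lay below control in Lin28-bKO, against 50.2% of all tested genes, and 8 of 12 in Lin28-aKO, against 47.3%. The median log2 fold changes were −0.14 in Lin28-bKO and −0.05 in Lin28-aKO. The markers above control were 3 in Lin28-bKO and 4 in Lin28-aKO, with COL1A1 at 2.18 among the latter. Single markers differed in the order of libraries. The collagen gene COL1A1 was at 590, 517 and 73.3 CPM in Lin28-aKO and 89.8, 95.3 and 54.1 CPM in Lin28-bKO, against 109, 102 and 49.6 CPM in control, with replicate 3 lowest in each group. Its partner chain COL1A2 was at 534, 551 and 37.5 CPM in Lin28-aKO and 205, 158 and 720 CPM in Lin28-bKO, against 221, 210 and 695 CPM in control. Replicate 3 of COL1A2 was highest in Lin28-bKO and control, as for ZEB1, but lowest in Lin28-aKO. FBLN1 was at 49.8, 52.1 and 86.1 CPM in Lin28-aKO and 67.0, 74.1 and 74.4 CPM in Lin28-bKO, against 99.1, 97.3 and 102.5 CPM in control. Its replicate 3 was highest in each group, but in Lin28-bKO (74.35 against 74.13 CPM in replicate 2) and control by far less than for ZEB1. FBLN1 in both knockouts lay below control without overlap (edgeR adjusted p = 0.261 and 0.542). With FBLN1 included, this held for 1 of 12 markers in Lin28-aKO, against 9.78% of all tested genes. In Lin28-bKO it held for 3 of 12, against 11.4%. The part of the fibroblast markers in the ZEB1 difference was not tested. The 7 neural markers found, of 10 listed, summed to 466 to 915 CPM in Lin28-aKO and 457 to 487 CPM in Lin28-bKO, where SOX1 was at 0 counts, against 598 to 783 CPM in control. ELAVL4 alone made up most of these sums, at 368, 397 and 736 CPM in Lin28-aKO and 380, 388 and 400 CPM in Lin28-bKO, against 519, 536 and 694.5 CPM in control. Its replicate 3 was highest in each group, although in Lin28-bKO by far less than for OTX1. All Lin28-bKO libraries of ELAVL4 lay below all control libraries, as did 11.4% of all tested genes, and it was the only 1 of 6 tested neural markers to do so. By log2 fold change 4 of the 6 lay below control in Lin28-bKO, against 50.2% of all tested genes, and 2, MAP2 and NEFM, lay above. The part of the neural markers in the OTX1 difference was not tested. The 8 endothelial markers found, of 9 listed, summed to 16.2 to 67.9 CPM in Lin28-aKO, where CDH5 was at 0 counts, and 61.0 to 84.4 CPM in Lin28-bKO, against 24.2 to 53.5 CPM in control. The 5 leukocyte markers found, of 8 listed, summed to 20.9 to 28.2 CPM in Lin28-aKO and 15.0 to 16.6 CPM in Lin28-bKO, against 15.1 to 19.3 CPM in control, and the 2 erythroid markers found, of 8 listed, to at most 0.895 CPM in any library. The part of these cell types in the results was not tested. Fewer cells with a transcript and less transcript per cell cannot be told apart in such bulk samples.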

How the data were processed

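Poly(A) RNA was measured in 9 libraries (NEBNext Ultra Directional kit, per the labels' protocols). The authors deposited whole-number counts per Ensembl gene. The builds GRCg6a and galGal6 and the tools edgeR 3.38.4, DESeq2 1.36.0, featureCounts 2.0.3 and HISAT2 2.1.0 stand in the submitters' processing notes without roles. The counting's use of strand is not given in the sources used here, nor is the annotation release, and reads of overlapping or antisense genes cannot be told apart. The authors' deposited tables also give, per the file headers, log2 fold changes with standard errors, p-values and a score (Wald statistic).

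Testing used edgeR 4.0.16 under R 4.3.3 (TMM, filterByExpr, quasi-likelihood F test, all 9 libraries, Benjamini-Hochberg adjusted p under 0.05), after checking the fit on simulated counts. DESeq2 1.42.0 (independent filtering at 0.05), other scalings and filters, a replicate block and leaving out libraries were alternatives. No pair of libraries had identical counts. Same-numbered libraries deviated together (r = 0.187, 0.149 and 0.281 for Lin28-aKO with control, 0.150, 0.212 and 0.347 for Lin28-bKO with control, all above 0.1), so the numbers were taken to pair libraries, although the check does not separate replicate 1 from replicate 2. Intervals cover the spread between libraries, and the floor of 3 counts covers counting error alone.

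The members and lists were chosen with earlier results of these data known. Genes named are the members, LIN28A and LIN28B, OTX2, CRX, ZEB2, BATF, BATF3, ATF3, FOS, JUN, the 4 genes most like each member (1 of those for ZEB1 is not reported here), the 2 neighbours on each side, called list members or else the 2 most abundant of a list, and marker genes. CDH1, ST14, CEBPB, CREB3L1, SOX2, CER1, TNC, FN1, FGF8, EN1, COL1A1, COL1A2 and FBLN1 were named after their values were seen. Symbols come from the deposited tables. RefSeq gene positions of GRCg7b, another assembly than GRCg6a, served only to find the neighbours. No coordinates of the 3 genes are reported, and no sequences were used.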

Additional observations from a re-analysis of the deposited data

How the results depend on the processing

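In Lin28-bKO the 3 genes stayed below control under all 17 alternatives, at −2.00 to −1.32 for OTX1, −2.04 to −1.34 for JDP2 and −1.33 to −0.45 for ZEB1 on the log2 scale, also as the range without single libraries (OTX1 was −2.00 without Lin28-bKO replicate 3, more than the spread between replicates from −1.52). Lin28-aKO over Lin28-bKO was above 0 throughout. The alternatives refit the same Lin28-bKO counts on which the rule chose the genes, so nothing is read from these signs.

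In Lin28-aKO only OTX1 passed, and only with replicates 1 and 2 alone (−0.69). JDP2 and ZEB1, both close to 0, changed sign, and the cause was not tested. JDP2 ranged from −0.16 to 0.34 without single libraries, and was −0.04 without control replicate 2 and −0.16 without Lin28-aKO replicate 3. ZEB1 ranged from −0.48 to 0.41, and was 0.41 without control replicate 3, 0.09 and 0.06 without Lin28-aKO replicate 1 or 2, and 0.015 with replicates 1 and 2 alone. With the replicate block no call on the 3 genes in Lin28-aKO changed.

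Counts of called genes depended on the setting. In Lin28-aKO (1 over all libraries) they were 13 with the replicate block, 333 by DESeq2, 5 without a filter, 4724 with replicates 1 and 2 alone, 0 with only the groups compared, and 0 to 453 without single libraries, 453 being without Lin28-aKO replicate 3. In Lin28-bKO (2 over all libraries) they were 24 with the replicate block, 118 by DESeq2, 4898 with replicates 1 and 2 alone, 1 with only the groups compared, and 0 to 166 without single libraries, 166 being without Lin28-aKO replicate 3 and 21 without Lin28-bKO replicate 3. Of the list counts of 0, all rose with replicates 1 and 2 alone, to 7 to 17 members of lists of 11 to 33 tested genes. That fit called 30.1% of 15696 genes in Lin28-aKO and 4898 of the same genes in Lin28-bKO. Nothing is read from this rise about the lists.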
